A study of Mus musculus with 16 samples.

Results

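The PARP family genes code for enzymes that attach ADP-ribose to proteins, and they were described here from H3K27ac peaks around their start sites in mouse bone marrow-derived macrophages (BMDMs). The set held 10 genes chosen by name out of 21911 protein-coding genes: Parp1, Parp2, Parp3, Parp4, Parp8, Parp9, Parp10, Parp12, Parp14 and Parg. A peak was assigned to a gene when its nearest edge lay within 50 kb of any annotated start site of that gene on mm10, and peaks of neighbouring genes in that window were counted too. By this rule the set had 73 of 43533 peaks in the Control list, 66 of 40708 in IFNγ, 70 of 44090 in PJ34 and 84 of 42960 in the list with both treatments (IFNγ+PJ34). Joined where they overlapped, these peaks formed 89 of 55218 regions. The median of peaks per gene over the set was 8 in Control, 7 with IFNγ, 8.5 with PJ34 and 7.5 with both. Over all genes, including those without a peak, it was 2 or 3. Members ranged from 2 to 16 peaks in Control and from 1 to 24 with both. A peak in overlapping windows counted for each gene.

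H3K27ac marks promoters and enhancers in use. ChIP-seq for this histone mark was done in BMDMs differentiated from the marrow of C57Bl6 mice that were 8 to 12 weeks old. The cells were left untreated (Control), given IFNγ at 100 ng/mL for 1 h, given the PARP inhibitor PJ34 at 20 µM, or given PJ34 1 h ahead of IFNγ at the same doses. PJ34 acts on enzymes of the family described here, so the treatment and the genes concern the same proteins, although only H3K27ac and no protein or RNA was analysed. For each condition the labels give 2 ChIP and 2 input replicates, which the authors made into 1 peak list, so values carry no replicate error and no difference was tested. How many mice gave each culture is not given in the sources used here. The promoters of 7 macrophage markers (Csf1r, Spi1, Cd68, Adgre1, Itgam, Mertk and Lyz2) carried a peak in all 4 lists, and 0 of the T cell, fibroblast, epithelial and erythroid markers did in any list. Among the remaining markers, the B cell gene Ms4a1 had a promoter peak in all 4 lists, at score percentiles of 10.4 to 55.9, and the progenitor gene Kit had a peak at percentile 15.3 in PJ34 alone.

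ADP-ribosylation is written by enzymes that use NAD+, read by proteins that bind the modification, and erased by hydrolases. PARP-1, PARP-2 and PARP-3 are activated by DNA breaks, PARP-1 being the most abundant of the family and also bound to chromatin, where it acts with transcription factors. PARG cuts poly(ADP-ribose) chains. PARP-4 is part of the vault particle. PARP-10, PARP-12 and PARP-14 transfer single ADP-ribose units, PARP-8 is a little-studied member of that class, and PARP-9 works in a complex with the ubiquitin ligase DTX3L. Parp9, Parp10, Parp12, Parp14 and Dtx3l are known as interferon-stimulated genes in many cell types.

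Reference promoter sequence (RefSeq, GRCm38.p6) was matched by symbol for 7 of the 10 genes: Parp1, Parp2, Parp3, Parp4, Parp8, Parp12 and Parg. The windows ran from 250 bases before to 50 bases after the start, and parts outside all annotated exons are printed 5′ to 3′ on the strand of the gene. Shown are 4 of these 7 with a promoter change counted below, and Dtx3l because its start lies 140 bp from that of Parp9 in the same acetylated region. Parp9, Parp10 and Parp14 also have changes counted below but had no matched window. Capitals mark the interferon-stimulated core, written GAAANNGAA, where N is any base.
Parp1, chr1:180568641-180568890, + strand: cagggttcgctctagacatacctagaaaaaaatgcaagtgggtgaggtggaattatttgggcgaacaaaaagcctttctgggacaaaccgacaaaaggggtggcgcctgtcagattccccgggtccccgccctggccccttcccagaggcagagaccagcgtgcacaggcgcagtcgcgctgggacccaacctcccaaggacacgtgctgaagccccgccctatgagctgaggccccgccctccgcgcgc
Parp3, chr9:106476950-106477199, − strand: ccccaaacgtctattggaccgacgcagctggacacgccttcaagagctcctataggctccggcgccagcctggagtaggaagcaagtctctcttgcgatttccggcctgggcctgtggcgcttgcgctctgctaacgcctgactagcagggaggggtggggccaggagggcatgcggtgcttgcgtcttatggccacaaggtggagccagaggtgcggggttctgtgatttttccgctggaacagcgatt
Parp4, chr14:56575426-56575618, + strand: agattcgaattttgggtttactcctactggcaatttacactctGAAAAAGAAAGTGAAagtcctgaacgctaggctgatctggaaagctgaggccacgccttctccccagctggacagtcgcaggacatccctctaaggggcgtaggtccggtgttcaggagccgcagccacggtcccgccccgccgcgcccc
Parp12, chr6:39118350-39118472, − strand: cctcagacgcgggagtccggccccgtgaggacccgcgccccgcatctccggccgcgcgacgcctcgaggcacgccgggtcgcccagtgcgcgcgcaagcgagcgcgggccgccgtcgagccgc
Dtx3l, chr16:35939207-35939277, − strand: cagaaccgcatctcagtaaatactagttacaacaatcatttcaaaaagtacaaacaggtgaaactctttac

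Both strands of the windows were searched for the core and for the control letters AAGNNAAAG. The core GAAANNGAA was in 1 of the 7 members, Parp4, and in 8.55% of 32817 promoter windows of the genome. Parp4 held 2 such matches at chr14:56575469-56575477 and chr14:56575475-56575483, which overlap each other and a match of the control letters. Across all windows, AAGNNAAAG was in 7.93%. A match or its absence describes only these letters in these windows. When whole promoter regions were read from the genome, 11 regions with 32315 bases held 10 matches of the core, of which 3 lay in the region of Parp4 and 3 in that of Parp14 at chr16:35867838-35873259. Per kb that is 0.309 over the 11 regions, beside 0.308 over all promoter windows. The windows are shorter and nearer to starts than the regions, and regions of other genes were not searched, so these are unlike measures. It was 0.553 at Parp14, 0.235 at Parp9 and 0.218 at Parp12, and the Parp10 region held 0. The control letters had 13 matches in the 11 regions, 0.402 per kb beside 0.286 over all windows.

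In a bulk ChIP, fewer cells with the mark and less mark per cell cannot be told apart. A promoter peak, one that overlapped the 1 kb either side of a start site, was found for 10 of 10 members in all 4 lists, while 47.8% of protein-coding genes had one in all 4. The level of a promoter is given as the highest fold enrichment over background among its peaks, a ratio at the summit that does not add up over length. Over all genes with a promoter peak, the median fold was 25.9 in Control, 19.3 with IFNγ, 23.7 with PJ34 and 18.5 with both. The members were spread widely among promoters, from fold percentile 28.2 to 95.4 in Control. From lowest to highest in Control the order was Parp4, Parp1, Parg, Parp3, Parp10, Parp2, Parp8, Parp9, Parp12 and Parp14, and without replicate error neighbours in this order cannot be told apart.

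**Figure D1:**
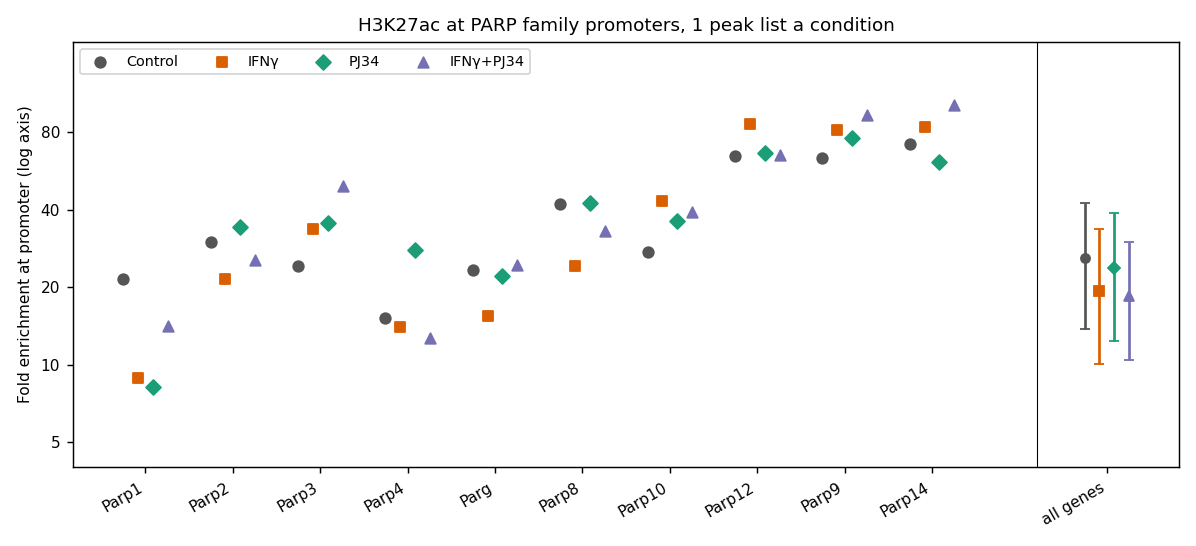
Fold enrichment of H3K27ac at the promoter of each PARP family gene (log axis) in the 4 peak lists, 1 point a list, with the median and quartiles of all genes with a promoter peak at the right. Parp12, Parp9 and Parp14 lie above the upper quartile of all genes in every list, and Parp1 has its highest value, 21.6, in Control.

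The DNA break-dependent members differed from one another. Parp1 (ENSMUSG00000026496.11, chr1:180568929-180601254) had a promoter fold of 21.6 in Control, 8.90 with IFNγ, 8.20 with PJ34 and 14.2 with both. Its level was thus highest in untreated cells and lowest in the lists with a single treatment, and in IFNγ and PJ34 the promoter was split into 2 peaks instead of 1. The width of the highest peak was 1954 bp in Control, 569 bp with IFNγ, 1121 bp with PJ34 and 1230 bp with both. Parp2 (ENSMUSG00000036023.6, chr14:50807841-50821301) stood at 30.1, 21.5, 34.4 and 25.5 in the same order of lists, near the middle of all gene promoters at percentiles 54.8 to 68.6. Its promoter region also holds the start of Rpph1, the RNA of ribonuclease P, 74 bp away on the other strand, so its peak belongs to either gene. Parp3 (ENSMUSG00000023249.15, chr9:106470322-106476949) had 24.3 in Control, 33.8 with IFNγ, 35.5 with PJ34 and 49.4 with both. At this highest Parp3 peak all treated lists were above Control, the reverse of Parp1. A weaker second peak, 347 bp from the Parp3 start at the promoter of Rrp9, had 7.57, 8.70, 11.6 and 4.48, lowest with both.

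Parp4 (ENSMUSG00000054509.7, chr14:56575619-56659794), the vault member, had a fold of 15.2 in Control, 14.0 with IFNγ, 27.9 with PJ34 and 12.7 with both. Only the PJ34 list stood apart, and the start of Cenpj, a centrosome gene, lies 237 bp away in the same region. Parg (ENSMUSG00000021911.16, chr14:32201949-32297550), the eraser, had 23.4, 15.4, 22.1 and 24.5, and it shares its region with Timm23, a mitochondrial import gene that starts 51 bp away. Parp8 (ENSMUSG00000021725.9, chr13:116854820-117025522) had 42.2 in Control, 24.2 with IFNγ, 42.7 with PJ34 and 33.0 with both, so that both lists with IFNγ were lower than both without, as was the median of all genes.

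Of the interferon-stimulated members, Parp12, Parp9 and Parp14 had the highest promoters of the set in every list. Parp12 (ENSMUSG00000038507.6, chr6:39086410-39118349) stood at 64.5 in Control, 86.2 with IFNγ, 66.8 with PJ34 and 65.5 with both. Parp9 (ENSMUSG00000022906.15, chr16:35938470-35972605) had 63.9, 81.9, 76.3 and 93.3, and the same peak covers the start of Dtx3l. Parp14 (ENSMUSG00000034422.14, chr16:35832874-35871544) had 72.0 in Control, 84.1 with IFNγ, 61.4 with PJ34 and 102.0 with both. These 3 promoters were already near the top of the genome without IFNγ, with fold percentiles among all gene promoters of 92.2 for Parp12, 92.0 for Parp9 and 95.4 for Parp14 in Control. In the IFNγ+PJ34 list, their percentiles were 97.9, 99.8 and 99.9. Parp10 (ENSMUSG00000063268.12, chr15:76233003-76243441) was lower, at 27.4 in Control, 43.3 with IFNγ, 36.1 with PJ34 and 39.1 with both, and its percentile was 52.8 in Control and 85.6 in IFNγ. The Parp12 region also holds the start of an antisense transcript, 4930599N23Rik, 124 bp away, and the Parp14 region that of Gm49730, 3593 bp away.

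IFNγ was set against Control to ask which of these promoters changed with the cytokine. Ratios of promoter fold were divided by the median ratio of all genes with a promoter peak in both lists, since that median was −0.42 on the log2 scale, and a gene was counted as higher or lower past 1.5-fold. In this sense 5 of 10 members were higher in IFNγ, namely Parp10 by 2.12-fold, Parp3 by 1.86-fold, Parp12 by 1.79-fold, Parp9 by 1.71-fold and Parp14 by 1.56-fold, while 15.7% of all genes were. One member, Parp1, was lower by 1.81-fold, and 16.7% of genes were. The other 4 lay between −0.38 (Parp8) and 0.31 (Parp4) on the log2 scale, where 5% of genes lay under −1.06 and 5% over 0.98. All 4 interferon-stimulated members of the set were thus among the 5 that were higher, with a median of 0.81, and the median of the 10 members was 0.48. Without centring, only Parp10 passed the call (log2 0.66), while Parp3, Parp12, Parp9 and Parp14 stayed above Control at 0.48, 0.42, 0.36 and 0.22. In all genes, the share of calls that were higher was 48.5% with centring and 10.8% without. Centred within deciles of level, Parp14 fell short of the call (0.49).

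**Figure D2:**
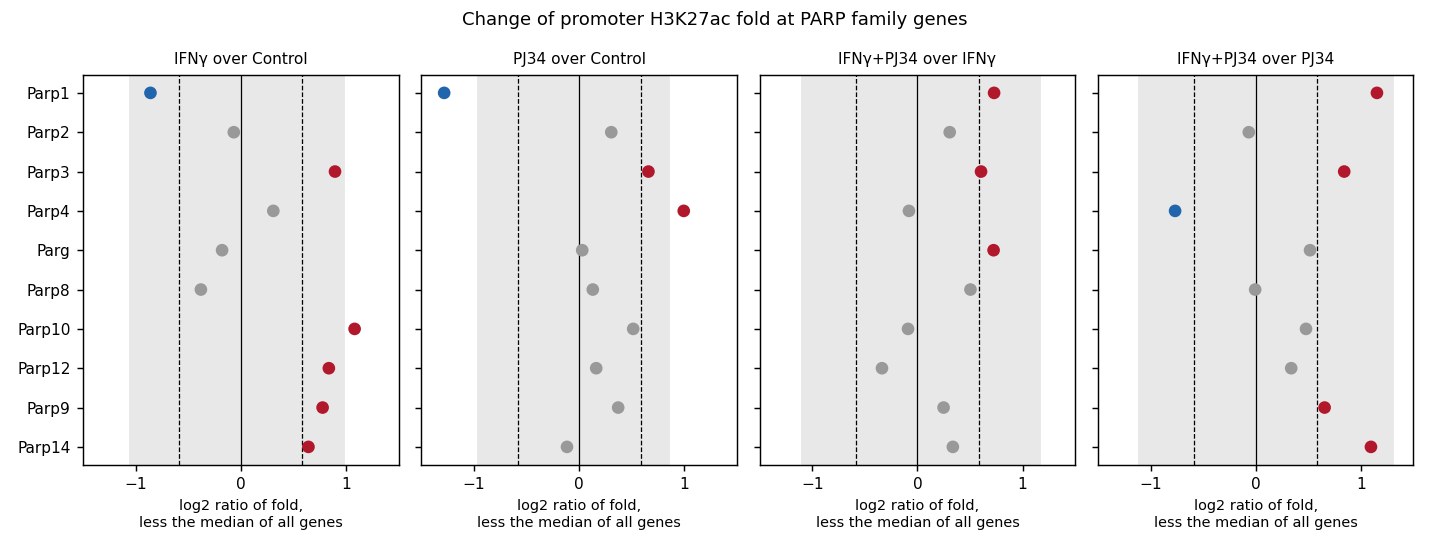
Log2 ratio of promoter fold between lists for each member, less the median of all genes, in 4 comparisons. Grey bands hold the middle 90% of all genes, dashed lines mark 1.5-fold, red points are higher and blue points lower; 5 members are higher in IFNγ than Control, and Parp1 is lower.

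With PJ34 alone, 2 of 10 members were higher than in Control, Parp4 by 1.99-fold and Parp3 by 1.58-fold, and 12.4% of all genes were. Parp1 was lower by 2.43-fold, at percentile 2.05 of all genes for this change, and 15.0% of genes passed the call in that direction. The interferon-stimulated members stayed within the call, from −0.12 for Parp14 to 0.51 for Parp10 on the log2 scale. The median shift of all genes was −0.11, and without centring the share of calls that were higher went from 45.3% to 30.4%. Both of these comparisons use the same Control list, so they are not independent.

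In the presence of PJ34, the change with IFNγ was given by IFNγ+PJ34 over PJ34. Parp1 was 2.22-fold higher, Parp14 2.14-fold, Parp3 1.79-fold and Parp9 1.57-fold, which makes 4 of 10 members beside 20.4% of all genes. Parp4 was lower by 1.70-fold, beside 18.9% of genes. Parp10 (1.39-fold) and Parp12 (1.26-fold) were above the median gene but within the call. The median shift of all genes was −0.36, and the share of calls that were higher was 51.9% with centring and 21.3% without. After centring, Parp3, Parp9 and Parp14 were thus higher with IFNγ in either setting, whereas Parp1 was lower without PJ34 and higher with it. Without centring, Parp3 (0.48) and Parp9 (0.29) fell short of the call with PJ34 present, and Parp1 and Parp14 kept it.

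Adding PJ34 to IFNγ was compared directly as IFNγ+PJ34 over IFNγ. Parp1 was higher by 1.66-fold, Parg by 1.65-fold and Parp3 by 1.52-fold, 3 of 10 members beside 19.8% of genes, and 0 of 10 were lower beside 17.6%. The interferon-stimulated members ranged from −0.34 for Parp12 to 0.34 for Parp14 on the log2 scale. This ratio shares the IFNγ list with that of IFNγ over Control, where it stands on the other side, so the values of a gene in the 2 ratios are not independent.

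**Figure D3:**
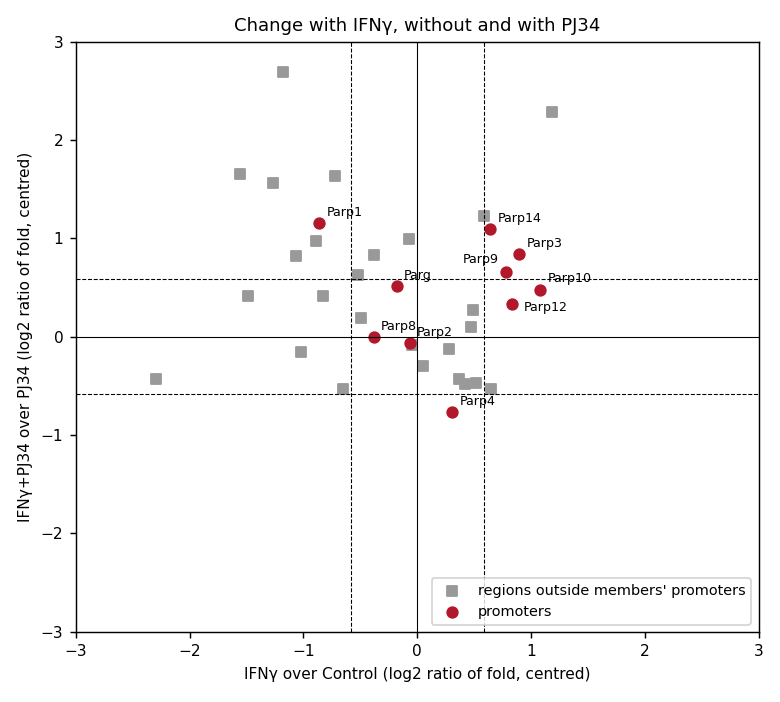
Centred log2 change with IFNγ in the absence of PJ34 (x axis) and in its presence (y axis) for the 10 promoters (red) and 26 regions outside the members' promoters that were in all 4 lists (grey squares). Dashed lines mark 1.5-fold; Parp1 and 6 of the grey squares lie in the upper left, lower with IFNγ alone and higher with IFNγ when PJ34 was present.

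Besides the members' promoters, the windows of the 10 genes held 26 regions that were in all 4 lists, 9 with the summit at a promoter of another gene and 17 with it elsewhere. Ratios were centred on the median of all regions in the 4 lists, and the shares given beside the 17 are of 11562 such regions with a summit outside promoters. In IFNγ over Control 9 of the 17 were lower and 2 higher, where 24.2% and 25.4% of those regions were. In PJ34 over Control 9 were lower and 0 higher, beside 25.8% and 17.2%. In IFNγ+PJ34 over IFNγ 0 were lower and 9 higher, beside 19.7% and 32.1%. In IFNγ+PJ34 over PJ34 0 were lower and 11 higher, beside 18.6% and 39.3%. The lists with a single treatment stand on opposite sides of these ratios, so a region that is low in such a list tends to be low in one ratio and high in the other by construction. Of the 9 regions at promoters of other genes, 2 were lower and 1 higher in IFNγ than Control. Of 9906 regions with a promoter summit, 17.5% and 15.2% were. The same counts were 0 and 1 in PJ34 over Control, beside 12.3% and 16.3%. Against IFNγ, the IFNγ+PJ34 list had 3 lower and 2 higher, beside 24.9% and 14.6%. Against PJ34 it had 0 and 0, beside 30.1% and 13.3%. Neighbouring regions are not independent, and 8 of the 26 lay in the window of Parp10 and 5 in that of Parp2, so the counts rest on few loci.

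The Parp1 locus had a shorter acetylated length in every treated list than in Control. Peaks within 50 kb of its start covered 10.6 kb in Control, 3.50 kb with IFNγ, 4.81 kb with PJ34 and 4.11 kb with both. As a share of Control that was 33.0%, 45.2% and 38.7%, where the median gene kept 82.9%, 92.4% and 81.1%, and Parp1 was at percentiles 4.59, 4.86 and 6.43 of 15706 genes. The whole Control list was also the longest, at 52.6 Mb against 42.5, 47.9 and 44.1 Mb, and the part of this in the Parp1 values was not tested. The largest part was a pair of regions at and beyond the 3′ end of Parp1, toward Lin9, with their summits between genes. At chr1:180603912-180606054, 35.0 kb from the start, the fold was 32.5 in Control, 4.98 with IFNγ, 9.31 with PJ34 and 6.34 with both. Control was several-fold above the others, and the change from Control to IFNγ, 4.91-fold lower after centring, was at percentile 0.210 of all shared regions. This region was named for the highest score outside the promoter, which was its Control score. A fall from Control is thus favoured by the choice, and the percentile is not a test. The adjacent region chr1:180600111-180603673 had 11.9, 4.42, 7.96 and 6.52. In an intron of Parp1, chr1:180586963-180587866 had 8.20, 2.60 and 4.57 and no peak in IFNγ+PJ34.

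Parp2 and its downstream neighbour Tep1, a telomerase-associated gene, followed another pattern. Peaks covered 20.5 kb in Control, 7.31 kb with IFNγ, 9.19 kb with PJ34 and 20.0 kb with both, or 35.6%, 44.7% and 97.3% of Control. Both lists with a single treatment were short of acetylated sequence here, and the length in IFNγ+PJ34 was close to that in Control. An exonic region of Tep1 at chr14:50823275-50826211, 15.4 kb from the Parp2 start, had a fold of 13.1 in Control and 21.4 in IFNγ+PJ34 and no peak in IFNγ or PJ34. In Tep1 introns, chr14:50840998-50844238 had 14.8, 4.90, 3.31 and 19.7, and chr14:50832579-50836443 had 25.6, 6.52, 6.77 and 19.5. One region upstream of Parp2 went with IFNγ instead: chr14:50802387-50803401, 4.44 kb from the start, had a peak in IFNγ (10.7) and IFNγ+PJ34 (15.1) and in neither list without the cytokine.

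**Figure D4:**
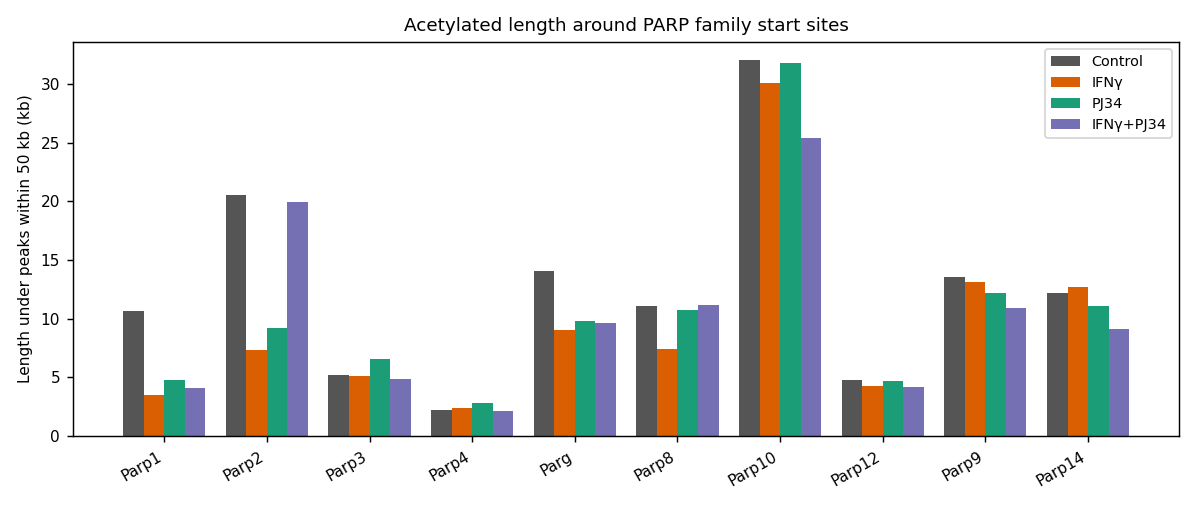
Summed length of H3K27ac peaks within 50 kb of each gene's start sites (kb) in the 4 lists. Parp1 has 10.6 kb in Control and at most 4.81 kb in a treated list, and Parp2 has 20.5 kb in Control and 20.0 kb in IFNγ+PJ34 but under 10 kb in the other lists.

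Around Parp9 and Parp14, which lie 66.9 kb apart on chromosome 16 with divergent starts, the windows overlapped and shared regions. The strongest region outside a promoter was intergenic, chr16:35918157-35919772, 18.7 kb from Parp9 and 46.6 kb from Parp14, with a fold of 29.7 in Control, 33.5 with IFNγ, 21.8 with PJ34 and 46.6 with both. Both lists with IFNγ were above both without, and after centring the change was 1.5-fold in IFNγ over Control and 2.34-fold in IFNγ+PJ34 over PJ34. Its score percentile in IFNγ+PJ34 was 98.4, the score by which the region was named, so ratios with that list on top lean higher by the choice. A wider region, chr16:35901337-35904870, had 20.3, 8.22, 4.45 and 7.98 and was highest in Control. At chr16:35890009-35890554, 18.5 kb from Parp14, a peak was found in IFNγ (4.84) and PJ34 (7.05) alone.

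After centring, the Parp8 promoter stayed within the call in all 4 comparisons, and of the 3 upstream regions found in all 4 lists, 2 were highest in IFNγ+PJ34. At chr13:117051457-117053941, 25.9 kb upstream, the fold was 8.93 in Control, 15.3 with IFNγ, 8.29 with PJ34 and 37.0 with both. After centring this is 2.27-fold higher with IFNγ alone and 4.88-fold higher with IFNγ in the presence of PJ34, at percentiles 93.8 and 97.7 of all shared regions. This region was named for the highest score outside the promoter, which was its score in IFNγ+PJ34. The 4.88-fold value and its percentile are thus favoured by the choice and are not a test. The region at chr13:117032345-117036775, 6.82 kb upstream, had 21.7, 6.78, 13.4 and 36.3, lowest with IFNγ and highest with both. The remaining one, chr13:117048003-117049418, 22.5 kb upstream, had 8.33, 2.99, 4.67 and 7.55 and was highest in Control. In PJ34 alone, 3 further peaks lay in intronic sequence of Parp8 between 2.60 and 6.20 kb from the start, at folds of 2.41 to 4.06 and score percentiles of 0.856 to 38.2.

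**Figure D5:**
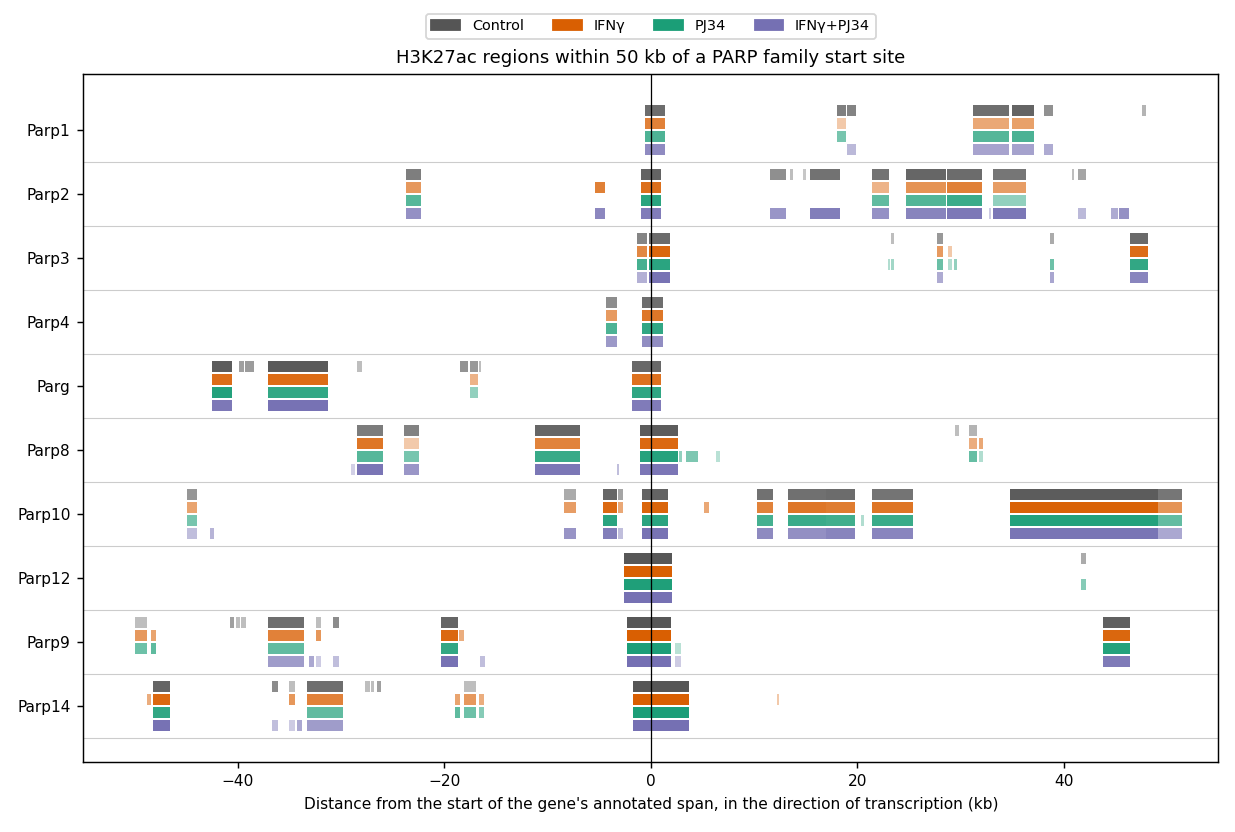
Regions with an H3K27ac peak within 50 kb of a start site of each member, by distance from the start of its annotated span in the direction of transcription (kb). A bar is drawn over the whole merged region in each list that has a peak in it, paler for a lower score percentile; the cluster downstream of Parp2 has more bars in Control and IFNγ+PJ34 than in IFNγ and PJ34.

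The remaining members had few or neighbour-owned distal regions. Around Parp10 there were 14 regions, several of them in Plec, a cytolinker gene, and 9 of them were in all 4 lists. The region over the Plec starts, chr15:76194295-76208643, had folds of 50.2, 50.7, 49.5 and 32.4. In IFNγ+PJ34 the Parp10 window was broken into 24 peaks over 25.4 kb, against 16 peaks over 32.0 kb in Control. This length was 79.5% of Control, where the median gene kept 81.1%. The strongest region in the Parg window was in Ncoa4, a ferritin receptor gene, at chr14:32164837-32170696, with 49.0 in Control, 22.4 with IFNγ, 19.5 with PJ34 and 55.5 with both. Parp3 had its strongest distal region at the promoter of Rpl29, 45.9 kb away (21.5, 25.3, 25.0 and 15.8). Parp4 had 1 region besides its promoter, 3.30 kb away at another start site of Cenpj, with 6.93, 5.07, 10.4 and 8.98. Parp12 had 1 weak region 41.7 kb away in Tbxas1, present in Control (3.96) and PJ34 (4.03) alone.

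Shares of peaks absent from another list were set beside those of the whole lists. Of the Control peaks in the set, 23 of 73 (31.5%, exact Clopper-Pearson 95% interval 21.1 to 43.4%) were absent from IFNγ, beside 31.7% of all Control peaks. Of the IFNγ peaks, 9 of 66 (13.6%, 6.43 to 24.3%) were absent from Control, beside 16.8%, and 12 of 66 (18.2%, 9.76 to 29.6%) were absent from IFNγ+PJ34, beside 24.1%. PJ34 peaks were absent from Control in 11 of 70 cases (15.7%, 8.11 to 26.4%), beside 19.5%. For IFNγ+PJ34, 21 of 84 peaks (25.0%, 16.2 to 35.6%) were absent from IFNγ and 21 of 84 from PJ34, beside 27.2% and 25.7%. Furthest from the whole list were IFNγ+PJ34 peaks absent from Control, 10 of 84 (11.9%, 5.86 to 20.8%), beside 20.8%, a share at the upper bound of the interval. The remaining pairings ran from 10.6% for IFNγ peaks absent from PJ34, beside 14.8%, to 30.1% for Control peaks absent from PJ34, beside 25.1%. All 12 intervals held the share of all peaks, and intervals cover counting error only. Peaks absent from another list were mostly weak, with median score percentiles of 5.78 to 34.3 in these comparisons. Single ones were strong, up to percentile 86.2 among IFNγ+PJ34 peaks absent from IFNγ. Of the 89 regions, 37 (41.6%) were in all 4 lists, beside 38.9% of all regions, and 13 (14.6%) were in Control alone, beside 11.8%. Of the regions with a promoter summit, 20 of 26 (76.9%) were in all 4 lists, beside 82.9% of all such regions. In introns it was 8 of 33 (24.2%), beside 25.5%, and between genes 8 of 27 (29.6%), beside 28.1%.

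Other genes of the pathway were read beside the shares of all genes given above, 15.7% higher and 16.7% lower in IFNγ than Control. Among 6 other writers (Tiparp, Parp6, Parp11, Parp16, Tnks and Tnks2), 1 was higher and 0 were lower in IFNγ than Control. That gene was Tiparp, a mono-ADP-ribosyltransferase induced by dioxin, at 56.8 in Control, 80.7 with IFNγ, 54.3 with PJ34 and 39.0 with both. Its level was highest with IFNγ alone and lowest with both. With PJ34 alone 1 of the 6 was higher than in Control and 1 lower, beside 12.4% and 15.0% of all genes. Parp11 was 1.97-fold higher (37.6 in Control, 68.5 in PJ34) and Tnks2, a tankyrase, was lower (56.5 and 26.8). Among 13 readers, erasers and partners, 1 was higher in IFNγ, Dtx3l, and 2 were lower, Xrcc1 and Chd1l. XRCC1 is a scaffold of single-strand break repair that PARP-1 recruits, and its promoter had 21.6, 9.0, 12.5 and 11.6. CHD1L is a remodeler activated by poly(ADP-ribose), and its promoter had 27.7, 13.7, 13.5 and 22.6, the order seen at Parp1. In PJ34 over Control 3 of 12 in this list were lower, Aplf, Xrcc1 and Chd1l, and 0 higher, beside 15.0% and 12.4% of all genes. In IFNγ+PJ34 over IFNγ 3 of 12 were lower, Adprhl2, Oard1 and Hpf1, and 1 higher, beside 17.6% and 19.8%. Hpf1, the partner that directs PARP-1 to serine, had 4.25 in IFNγ+PJ34 and 8.75 to 10.8 in the other lists.

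For scale, 11 known IFNγ-response genes were taken, of which 10 had a promoter peak in both lists and 9 were higher in IFNγ than Control, with a median of 1.22 on the log2 scale. Psmb9 and Tap1 start in the same region and have the same peak, so the list holds fewer separate promoters than genes. Cxcl10, a chemokine, went from 6.53 in Control to 20.0 in IFNγ and from 10.7 in PJ34 to 42.2 in IFNγ+PJ34. Gbp5, a guanylate-binding protein gene, had 17.9 and 48.2 without PJ34 and 16.2 and 40.0 with it. Irf1, an interferon regulatory factor gene, was the 1 of the 10 that did not pass the call (73.1 in Control and 61.3 in IFNγ). With PJ34 present, 10 of 10 were higher with IFNγ, with a median of 1.42, where the median of the 10 PARP family members was 0.50. The PJ34 list that serves as reference had 3 of these 10 lower than Control and 1 higher, beside 15.0% and 12.4% of all genes. Irf1 had 33.9 in PJ34 and 42.1 with both, under its Control value. The members with the highest changes, Parp10 at 1.08 without PJ34 and Parp1 at 1.15 with it, lay below the medians of this list in both settings.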

How the data were processed

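H3K27ac ChIP-seq of BMDMs under 4 conditions was analysed from 4 deposited peak lists. The authors aligned reads to mm10 with Bowtie, filtered them with Samtools and Picard, called relaxed peaks with MACS in each replicate against its input, and kept peaks that overlapped in both replicates. Which replicate the values of a final peak come from is not given in the sources used here. The deposited columns used were the score (10 to 1000), ranked within a list as a percentile with ties sharing their mean rank, the fold enrichment (a ratio), the −log10 p-value and −log10 q-value, and the summit offset. The lowest deposited −log10 p was 2.03. The lists hold no read counts, so depth is unknown. Input samples entered only as the authors' peak-calling background.

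Start sites and exons came from GENCODE M21 (basic set), promoter windows from RefSeq tables and whole regions from the GRCm38.p6 genome. Peaks were shared when they overlapped by at least 1 bp, and coordinates are 1-based. With 1 list per condition no test was made, and shares have exact Clopper-Pearson 95% intervals (Python 3.11.15, numpy 2.4.6, pandas 2.3.3, scipy 1.17.1, matplotlib 3.10.9). The functions were tested on simulated data. Some genes and motif letters of the lists are not reported here and were left out of the counts over those lists. Members, gene lists, settings and alternatives were chosen with earlier results of these data known. By the naming rule all 10 members were named, with their promoter, their highest-scoring region outside it and the highest-scoring region missing from a list. A region named for its highest score tends to be high in the list that gave this score, so its ratios to other lists are not a test. Other genes were named where they start in a member's promoter region, or belong to a pathway or response list and passed 1.5-fold in a comparison. Not all genes of the response list that passed were named. Further regions around Parp1, Parp2, Parp8, Parp9 and Parp14, and the genes nearest to a named region were chosen after their values were seen. Alternatives were another overlap rule, q under 0.01, equal list sizes, other windows, 2-fold calls, ranks in place of fold and no centring. Centring within deciles of level and the comprehensive GENCODE start sites were chosen after seeing the data, as was the split of shared regions by the place of the summit.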

Additional observations from a re-analysis of the deposited data

Results flagged for a closer look

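Among the members' promoters, only that of Parp1 had opposite calls with IFNγ without and with PJ34. Some regions in the members' windows also did, several of them in or near other genes. With 1 list a condition these differences were not tested. At the Parp1 promoter the centred log2 change was −0.86 in IFNγ over Control and 1.15 in IFNγ+PJ34 over PJ34, a difference of 2.01. Over all genes, 7.63% of 10463 promoters passed the 1.5-fold call in opposite directions in these 2 comparisons. Around the members, 6 of 17 regions with a summit outside promoters did so, beside 14.6% of 11562 such regions in all 4 lists. At promoters of other genes 0 of 9 did, beside 7.86% of 9906. In the Parp2 window the difference was 3.88 for the region 33.2 kb from the start and 3.21 for that 24.7 kb away. In the Parp8 window it was 2.84 at 6.82 kb and 1.89 at 22.5 kb. It was 2.36 at the Ncoa4 region 31.2 kb from Parg and 1.86 at the region 29.8 kb from Parp14, which is also in the Parp9 window. All 6 were lower with IFNγ alone and higher with IFNγ in the presence of PJ34, as were 9.96% of the 11562.

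Presence also changed in opposite directions with IFNγ without and with PJ34 at 10 regions, but not all in the same way. Around the members, 6 of 89 regions (6.74%) had a peak in Control and IFNγ+PJ34 alone, beside 3.64% of all regions, and 4 (4.49%) were found in IFNγ and PJ34 alone, beside 2.70%. The 6 were lost with IFNγ alone and gained with IFNγ in the presence of PJ34, and the 4 went the other way. Of the 6, 3 lay in the Parp2 window and 2 in the Parp1 window.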

How the results depend on the processing

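Of 96 recomputed values for the percentages, counts and motif density, 78 stayed within their interval or within 1.5 times the count reported, and 18 moved. With a window of 100 kb, summits, lists of equal size, q under 0.01 and other start sites, values stayed within these limits, although PJ34 peaks absent from Control fell from 15.7% to 8.20% with lists of equal size. The promoter peaks of all 10 members stayed. The motif density was 0.833 matches of the core per kb in windows and 0.309 in whole regions, inside the counting interval. That interval is wide, since it rests on 2 overlapping matches at Parp4, so it cannot show that the density is stable. Absence from Control fell from 13.6% to 6.06% of IFNγ peaks and from 15.7% to 5.71% of PJ34 peaks when a peak within 1 kb counted as present, and absence of IFNγ+PJ34 peaks from IFNγ fell from 25.0% to 14.3%. Asking for 50% overlap raised Control peaks absent from IFNγ from 31.5% to 43.8%. In IFNγ over Control, the 5 higher and 1 lower members became 1 and 0 at 2-fold, 1 and 3 without centring, and 1 higher by rank of −log10 p. In PJ34 over Control the 2 higher members became 0, 1 and 0 under these settings. In IFNγ+PJ34 over IFNγ the 3 higher became 0 at 2-fold and 0 by rank. In IFNγ+PJ34 over PJ34 the 4 higher became 2, 2 and 0, and the 1 lower became 0 at 2-fold. Without centring 8 of the 17 calls of single members were lost. That 0 of the 17 changed sign is no check of this setting. The largest median shift, −0.42 on the log2 scale, is smaller than a 1.5-fold call, so leaving out centring could not reverse one. No paired analysis was possible because the authors combined the replicates of a condition in 1 list, which also meant that none could be omitted. Depth is unknown, so weak peaks found in a single list may lie near the limit of detection.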
